A study of Homo sapiens with 6 samples.

Results

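To examine the p53 response of cholangiocarcinoma (CCA) cells to isolinderalactone (ILL), a plant sesquiterpenoid lactone, 9 direct p53 target genes were followed in RNA-seq libraries of HCCC9810 cells. HCCC9810 is an established human CCA line, labelled wild type, and whether its p53 is mutated is not given in the sources used here. Cells received 20 μM ILL or DMSO as vehicle, each for 24 h, and each group held 3 libraries. The genes, MDM2, SESN1, TP53INP1, RRM2B, BTG2, ZMAT3, FDXR, TIGAR and GADD45A, were taken by symbol from a table of raw read counts for 19470 genes, and all 9 passed the filter on low counts.

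p53 is a transcription factor that is held at a low level by MDM2, its ubiquitin ligase and also its target, and that accumulates when DNA damage or other stress releases it. It binds a short consensus site and switches on genes that stop the cell cycle, repair DNA, restrain growth and metabolism, or start apoptosis. Many of its targets also answer to other stress-activated factors, so the level of a target is not a direct readout of p53.

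Of the 9 genes, 7 rose with ILL and 0 fell at an adjusted p under 0.05, by edgeR's quasi-likelihood test with Benjamini-Hochberg adjustment, while 36.2% of the 13066 tested genes rose and 36.9% fell, or 73.1% in all. Levels are given as CPM, counts scaled to library size by TMM, edgeR's trimmed mean method. The largest increase among the 9 genes was in TP53INP1, at 10.5-fold, followed by GADD45A at 2.48-fold and BTG2 at 2.06-fold. These 3 genes also passed the 2-fold cutoff that defines a differentially expressed gene (DEG), a cutoff that 12.5% of tested genes passed upward and 11.4% downward. ZMAT3, MDM2, RRM2B and FDXR rose by between 1.19-fold and 1.58-fold, and SESN1 and TIGAR did not pass the test. The median log2 fold change of the 9 genes was 0.52, against -0.0012 over all tested genes. The 9 genes were chosen with earlier results of these data known, which limits what this contrast can show. Read counts are shares of a library, so fewer transcripts per cell and fewer cells that carry them cannot be told apart.

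Total counts ranged from 34282764 to 37758569 per library, which gave the members between 40 and 3133 counts. The 10 most abundant genes took 5.20% to 5.45% of the counts in controls and 8.12% to 8.25% with ILL. The epithelial and biliary keratins KRT7 and KRT19 were at 677 to 1052 FPKM and at 1243 to 1665 FPKM in the 6 libraries. Among leukocyte markers CD68, a lysosomal protein, moved with the groups, from 21.7 to 24.4 FPKM in controls and from 63.8 to 66.6 FPKM with ILL, whereas PTPRC, which defines leukocytes, had at most 9 counts and CD3E at most 3 in any library. Summed hepatocyte markers ranged from 10.2 to 11.9 FPKM in controls and from 9.43 to 15.9 with ILL, fibroblast markers from 2.63 to 2.85 and from 3.24 to 3.73, and endothelial markers stayed under 1 FPKM. Of the 7 hepatocyte genes CYP3A4 and TAT were at 0 counts, whereas ALB, APOA1 and SERPINA1 averaged at least 1 FPKM. ALB was at 2.04 to 3.03 FPKM in controls and at 2.63 to 6.61 with ILL. SERPINA1 was at 5.69 to 6.52 FPKM in controls and at 5.51 to 6.91 with ILL. The part of these markers in the results was not tested.

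The DNA that p53 recognises was looked up at the starts of these genes, because they are grouped as genes that p53 binds. RefSeq promoter windows on GRCh38.p14 ran from 250 bases before to 50 bases after each annotated start. For 6 of the 9 genes, 13 windows were searched. No window of GADD45A, RRM2B or TP53INP1 was searched, so whether these genes hold a p53 site was not tested. The p53 consensus site was searched as 20 bases with no spacer and at most 3 mismatches, a pattern that reads the same on both strands. Such a match was found for MDM2, FDXR and SESN1. In the sequences below, capitals mark bases that fit the consensus and small letters those that do not.
MDM2, first site: GGtCAAGTTCAGACAcGTTC
MDM2, next site: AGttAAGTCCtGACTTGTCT
FDXR: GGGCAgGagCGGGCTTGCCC
SESN1: GGACAAGTCTccACAAGTCa
The MDM2 sites lie on the plus strand at chr12:68808923-68808942 and chr12:68808961-68808980, beginning 94 and 56 bases before an internal start, and are intronic in the 7 of 34 GENCODE transcripts that span them. The FDXR site, on the minus strand at chr17:74872996-74873015, overlaps an exon outside the coding sequence. The SESN1 site, on the minus strand at chr6:109009018-109009037, is intronic in 2 of 7 transcripts and begins 49 bases before an internal start. Among all genes with a window, 6.39% of 27305 held such a match, and among 30 other direct p53 targets 9 did. Counted by window, 5.2% of 35116 held one. A gene with more windows has more chances of a match, and the 6 searched genes had 13 windows. A match is a string of letters and not a measured binding site, and the windows of BTG2, ZMAT3 and TIGAR held none at this limit.

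Levels were compared between genes as FPKM, which divides the count by gene length. In controls GADD45A was highest at 25.5 ± 1.26 FPKM (SD, n = 3), followed by FDXR at 24.1 ± 1.4, and their ranges overlapped. RRM2B stood at 13.4 ± 0.783, ahead of MDM2 at 7.42 ± 0.361 and BTG2 at 7.10 ± 0.988, which overlapped each other. TIGAR, ZMAT3 and SESN1 followed at 4.59 ± 0.133, 4.19 ± 0.259 and 1.10 ± 0.181 FPKM, and TP53INP1 was lowest at 0.375 ± 0.151. With ILL no neighbours in the order overlapped. GADD45A stood first at 60.3 ± 4.4 FPKM, BTG2 passed MDM2, ZMAT3 passed TIGAR, and TP53INP1 at 3.77 ± 0.15 passed SESN1 at 1.32 ± 0.0378.

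**Figure D1:**
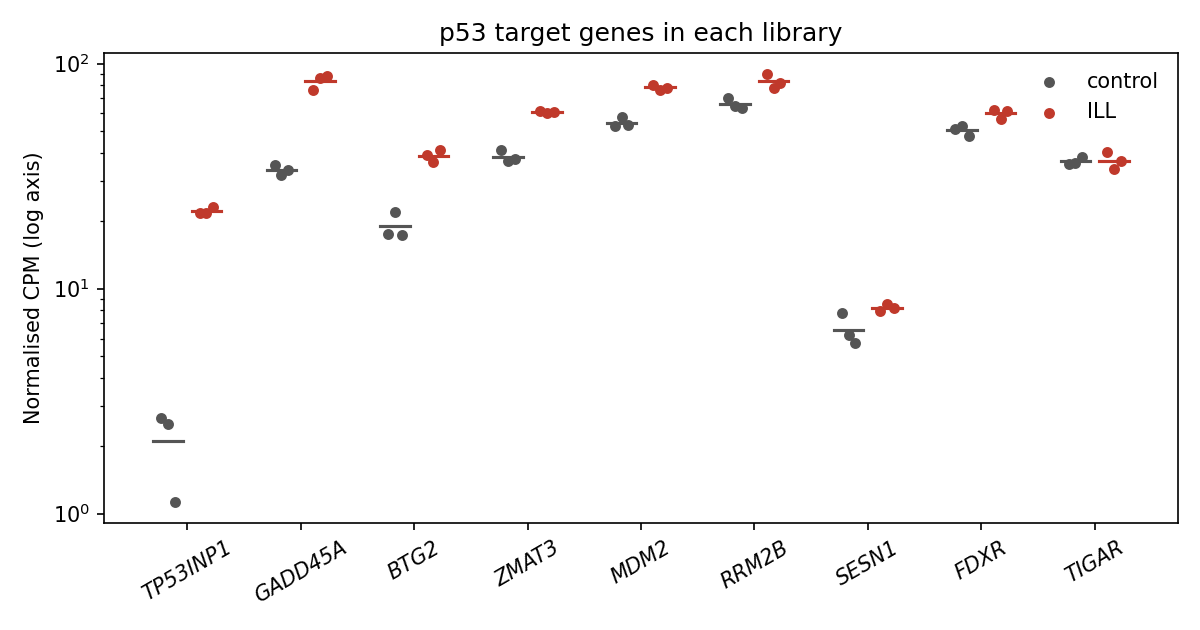
Normalised CPM on a log axis of the 9 p53 target genes in the 3 control (grey) and 3 ILL (red) libraries, with bars at group means. The groups are furthest apart for TP53INP1, at 2.10 and 22.1 CPM on average, and overlap for TIGAR only.

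The genes that rose by more than 2-fold encode a nuclear stress protein, a cell cycle brake and an antiproliferative regulator. TP53INP1, on chromosome 8 from 94925972 to 94949411 in GENCODE release 29 on GRCh38, encodes a stress-induced protein that promotes p53 phosphorylation and also takes part in autophagy. It was at 2.65, 2.50 and 1.13 CPM in control replicates 1 to 3 and at 21.7, 21.6 and 23.1 CPM in ILL replicates 1 to 3. Control replicate 3 was the lowest, with 40 counts, and every ILL library lay far above every control. The log2 fold change was 3.39 ± 0.18 (SE, edgeR adjusted p = 1.2e-14), and 3.10 without control replicate 3. The spread in controls, a coefficient of variation of 40.02%, was the widest of the 9 genes, against 3.89% with ILL.

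GADD45A, on chromosome 1 from 67685061 to 67688338, encodes a small stress sensor that binds PCNA, restrains the mitotic kinase CDK1 and feeds p38 and JNK signaling. Its control libraries held 35.3, 32.0 and 33.7 CPM and its ILL libraries 76.1, 86.5 and 88.0 CPM. ILL replicate 1 was the lowest of the treated libraries and was still above every control. GADD45A rose by a log2 fold change of 1.31 ± 0.07 (SE, edgeR adjusted p = 1.4e-14).

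BTG2, on chromosome 1 from 203305491 to 203309602, encodes an antiproliferative protein that brings a deadenylase complex to messenger RNAs. It was at 17.5, 21.9 and 17.4 CPM in controls and at 39.2, 36.5 and 41.4 CPM with ILL. Control replicate 2 was the highest control, and no libraries overlapped. The log2 fold change was 1.04 ± 0.09 (SE, edgeR adjusted p = 1.6e-10), with a 95% interval in fold from 1.81 to 2.35 that includes the 2-fold cutoff. Without control replicate 1 or control replicate 3 the log2 value was 0.99, so BTG2 was a DEG only by a narrow margin.

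The feedback and RNA regulators rose less. MDM2, on chromosome 12 from 68808176 to 68850686, was at 52.7, 57.6 and 53.4 CPM in controls and at 80.4, 76.6 and 77.9 CPM with ILL. The lowest ILL library stood well above the highest control. Its log2 fold change was 0.52 ± 0.06 (SE, edgeR adjusted p = 4.0e-08), or 1.43-fold. Exons of MDM2 share 133 bases with CPM, a carboxypeptidase gene on the opposite strand that is also in the count table. They share 785 bases with AC025423.4, an antisense gene, and 439 with AC025423.2, a pseudogene on the same strand. Neither of these is in the count table. ZMAT3, on chromosome 3 from 179017223 to 179072279, encodes a zinc finger protein that binds RNA and acts on splicing and transcript stability. It was at 41.1, 37.0 and 37.5 CPM in controls and at 61.3, 60.5 and 60.6 CPM with ILL. The ILL libraries were nearly equal, with a coefficient of variation of 0.711%, and the log2 fold change was 0.66 ± 0.07 (SE, edgeR adjusted p = 2.5e-09).

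Of the 7 genes that passed the test, RRM2B and FDXR had the smallest fold changes. RRM2B, on chromosome 8 from 102204502 to 102239118, encodes the p53-inducible small subunit of ribonucleotide reductase, which makes deoxynucleotides for repair and for mitochondrial DNA outside S phase. It was at 70.2, 65.1 and 63.3 CPM in controls and at 89.5, 78.0 and 82.0 CPM with ILL. The groups did not overlap, and RRM2B rose by a log2 fold change of 0.33 ± 0.06 (SE, edgeR adjusted p = 6.5e-05). FDXR, on chromosome 17 from 74862497 to 74873031, encodes the mitochondrial reductase that passes electrons from NADPH to ferredoxins. Its libraries held 51.1, 53.02 and 47.6 CPM in controls and 62.2, 56.9 and 61.4 CPM with ILL. The nearest libraries of the groups were only a few CPM apart, and the log2 fold change was 0.25 ± 0.07 (SE, edgeR adjusted p = 0.0015).

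SESN1 and TIGAR did not pass the test. SESN1, on chromosome 6 from 108986437 to 109094819, encodes a sestrin, a leucine-binding inhibitor of mTORC1 signaling. It was at 7.75, 6.23 and 5.74 CPM in controls and at 7.94, 8.51 and 8.21 CPM with ILL. Control replicate 1 lay just under the lowest ILL library, so the groups did not overlap, as in 8 of the 9 genes, all higher with ILL, against 37.5% of tested genes. The log2 fold change was 0.32 ± 0.15 (SE, edgeR adjusted p = 0.054), with a 95% interval in fold from 1.01 to 1.54. Without control replicate 1 it was 0.45 and passed the test (adjusted p = 0.017, edgeR). Exons of SESN1 share 363 bases with AL390208.1, an antisense gene that is not in the count table. TIGAR, on chromosome 12 from 4307763 to 4354593, encodes a phosphatase that lowers glycolytic flux and favours the pentose phosphate pathway. It was at 35.95, 36.3 and 38.2 CPM in controls and at 40.3, 34.1 and 36.7 CPM with ILL. ILL replicates 1 and 2 lay on either side of all controls, and the 95% interval of the fold change ran from 0.905 to 1.12. TIGAR shares 1711 of its 4017 annotated exon bases with AC008012.1, a gene model on the same strand that is not in the count table. Reads from there may not have been counted for TIGAR alone.

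Members of gene families and partners that work with these proteins were measured alongside, and 19 of 23 passed the filter on low counts, of which 6 rose and 7 fell, or 31.6% and 36.8%, near the 36.2% and 36.9% of all tested genes. Within families, the member among the 9 genes moved most in some, as in the TP53INP pair, but not in others, as in the sestrins. TP53INP2, an autophagy protein related to TP53INP1, went from 16.0 ± 0.977 to 92.0 ± 5.81 CPM (SD, n = 3), a log2 fold change of 2.53 ± 0.07 (SE, edgeR adjusted p = 9.2e-20). TP53INP1 accounted for 8.80% ± 3.63 (SD, n = 3) of the FPKM of the pair in controls and for 14.97% ± 0.603 with ILL.

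Among the sestrins, SESN2, which responds to several kinds of stress, went from 9.37 ± 0.664 to 70.5 ± 4.52 CPM (SD, n = 3), a log2 fold change of 2.91 ± 0.08 (SE, edgeR adjusted p = 4.1e-20). SESN3 fell by 1.22 on the log2 scale (edgeR adjusted p = 6.6e-07). SESN1 therefore made up 25.6%, 21.4% and 22.3% of the sestrin FPKM in controls and 5.73%, 6.07% and 6.56% with ILL, while the sum of the sestrins went from 4.77 ± 0.424 to 21.5 ± 1.32 FPKM (SD, n = 3). SESN2 was thus the sestrin that passed the test upward.

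GADD45B, a GADD45A relative, rose by a log2 fold change of 1.15, close to that of GADD45A. By quantitative PCR the study reported the opposite direction, a decrease of GADD45B with ILL in HCCC9810 and RBE cells. The reason for this difference was not tested. GADD45A held 62.0% ± 1.44 of the family's FPKM in controls and 64.5% ± 0.483 with ILL (SD, n = 3). GADD45G had at most 14 counts in any library and did not pass the test. Of the BTG and TOB antiproliferative family, BTG1 rose by 1.58, TOB1 by 1.03 and TOB2 by 0.36 on the log2 scale, whereas BTG3 fell by 0.50. BTG2 and BTG1 were near equal in controls, where BTG2 held 54.7% ± 3.99 of their summed FPKM, and BTG2 held 45.3% ± 1.36 with ILL (SD, n = 3).

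RRM2B and its S-phase counterpart RRM2, the other small subunit of ribonucleotide reductase, moved apart. RRM2 was at 372, 363 and 367 CPM in controls and at 41.6, 44.3 and 45.7 CPM with ILL, a decrease seen in every treated library. It fell by 3.07 ± 0.06 on the log2 scale (SE, edgeR adjusted p = 2.4e-23), and RRM1, the large subunit shared by both forms, fell by 2.54. The ratio of RRM2B to RRM2 in FPKM, which needs no scaling between libraries, was 0.128, 0.122 and 0.117 in controls and 1.46, 1.20 and 1.22 with ILL. This 10.5-fold difference separated all libraries of the groups (two-sided exact permutation test, p = 0.1, the smallest that 3 against 3 libraries allow). RRM2B thereby went from 10.9% ± 0.436 to 56.3% ± 2.71 of small subunit FPKM (SD, n = 3), while the sum of both went from 123 ± 2.38 to 28.6 ± 0.931 FPKM.

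The partners of the smaller responders did not follow them. FDX1 and FDX2, the ferredoxins that FDXR reduces, fell by 0.34 and 0.54 on the log2 scale (edgeR adjusted p = 0.00017 and 4.2e-06) while FDXR rose. MDM4, the MDM2 relative that also inhibits p53, was at 14.2, 18.2 and 16.3 CPM in controls and at 16.6, 19.2 and 15.1 CPM with ILL, and the groups overlapped. The 95% interval of the MDM4 fold change ran from 0.891 to 1.23. ZMAT2 and ZMAT5 had log2 fold changes of -0.0027 and 0.033 and did not pass the test. Among the PFKFB enzymes, whose product TIGAR breaks down, PFKFB3 fell by 0.22, while PFKFB2 at -0.056 and PFKFB4 at -0.23 did not pass. Without 1 library these ran from -0.093 without ILL replicate 2 to -0.031 without ILL replicate 3 for PFKFB2. For PFKFB4 they ran from -0.47 without ILL replicate 3 to -0.12 without ILL replicate 2, and neither gene passed. BTG4, ZMAT1, ZMAT4 and PFKFB1 had at most 9 counts in any library and were not tested.

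**Figure D2:**
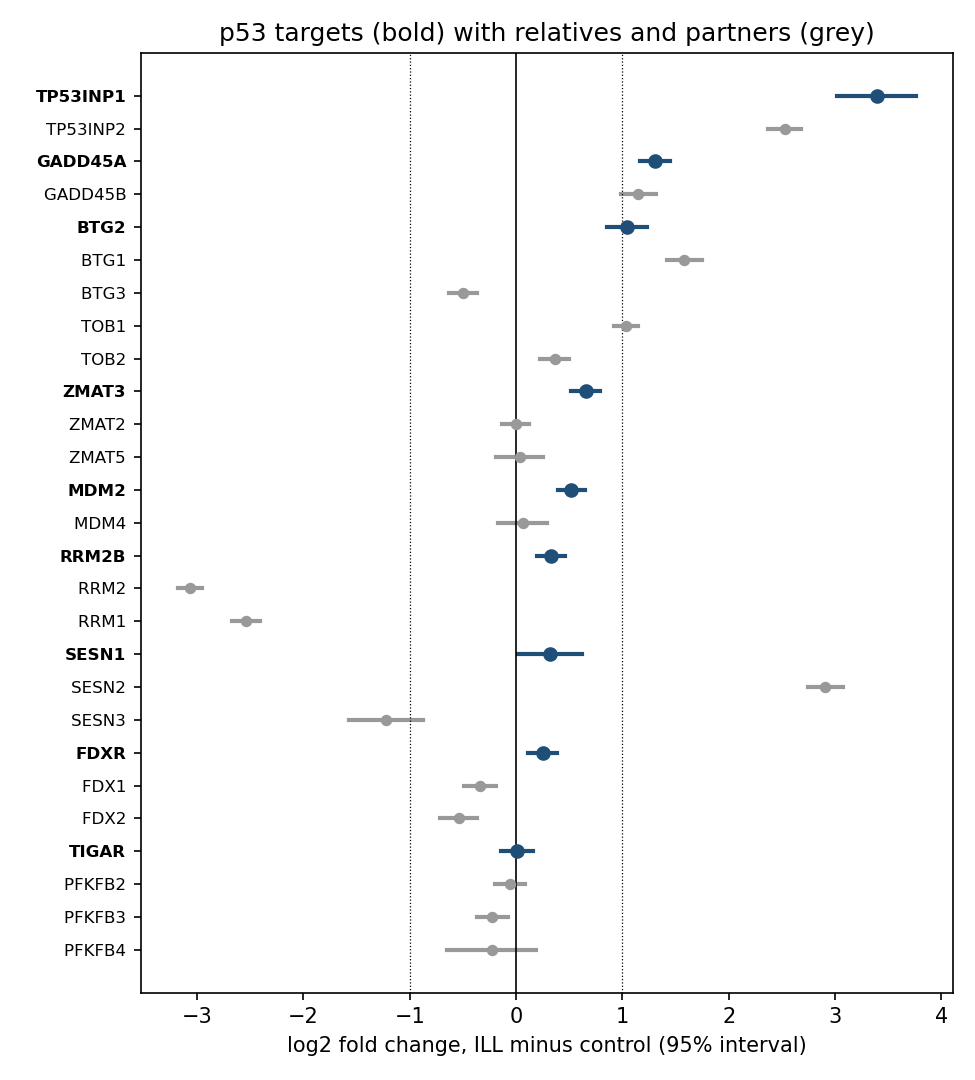
Log2 fold change, ILL minus control, with 95% intervals for the p53 target genes (bold names, dark blue) and their tested relatives and partners (grey), with dotted lines at the 2-fold cutoff. GADD45G is left out for its few counts, TP53INP1 is furthest to the right at 3.39, and RRM2 is furthest to the left at -3.07.

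**Figure D3:**
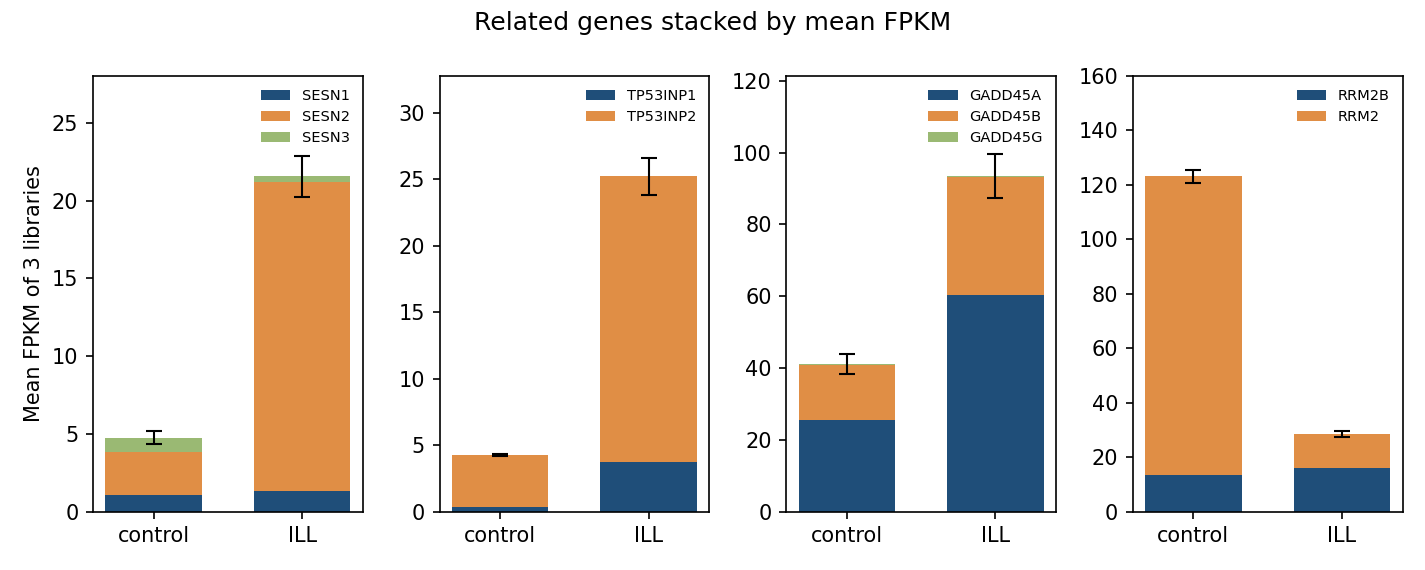
Mean FPKM over 3 libraries, stacked by gene, for the sestrins, the TP53INP pair, the GADD45 family and the ribonucleotide reductase small subunits, with black error bars for the SD of the stacked sum. The blue part at the base is the gene among the 9, which for SESN1 is 23.1% of the sestrin stack in controls and 6.12% with ILL, and SESN2, also a direct p53 target, is 58.3% and 92.2%.

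To place the 9 genes within the pathway, 38 other direct p53 targets were counted, all of which were tested. Of these, 19 rose, 12 fell and 7 did not pass the test, that is 31.6% lower, near the 36.9% of all tested genes that fell, while 36.2% rose. There were 9 DEGs higher and 2 lower, against 12.5% and 11.4% of all tested genes, and their median log2 fold change was 0.24. The genes with the largest increases were GDF15, a stress cytokine, BBC3, the proapoptotic protein PUMA, SESN2, and CDKN1A, the CDK inhibitor p21. CDKN1A, which links p53 to cell cycle arrest, was at 100, 98.5 and 112 CPM in controls and at 758, 780 and 741 CPM with ILL. Its log2 fold change was 2.88 ± 0.06 (SE, edgeR adjusted p = 9.2e-23). BBC3 and GDF15 had log2 fold changes of 3.09 and 4.65, GDF15 going from 15.5 ± 0.403 to 389 ± 34 CPM (SD, n = 3).

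Other p53 targets went the opposite way. KITLG, the ligand of the KIT receptor, fell by 1.47, and POLH, a translesion DNA polymerase, fell by 1.22 on the log2 scale (edgeR adjusted p = 2.9e-12 and 1.3e-12). PLK2, a polo-like kinase, fell by 0.91 and AEN, an apoptotic nuclease, by 0.79. POLH was at most 19.1 CPM in any ILL library and at least 39.1 CPM in any control, so the groups did not overlap. Scaled by library size only, 16 of the 38 passed upward and 14 downward. With limma on log2 of FPKM plus 1, which also changes the measure, the test and the genes tested, 14 passed upward and 15 downward among 33, and MDM2, TP53INP1, RRM2B, BTG2, ZMAT3, FDXR and GADD45A passed upward in both.

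Proteins that act upstream on p53 were counted in a list of 29 regulators, of which 7 rose and 19 fell, or 24.1% and 65.5%, against 36.2% and 36.9% of all tested genes. Their median log2 fold change was -0.31. The decreases were largest in the checkpoint kinases CHEK2 and CHEK1, which fell by 2.25 and 1.86 on the log2 scale, followed by PRKDC, the catalytic subunit of DNA-PK, at 1.47 lower, and NPM1, a nucleolar protein that binds MDM2, at 1.18 lower. CHEK2 was at 17.5, 14.7 and 15.9 CPM in controls and at 3.51, 3.28 and 3.32 CPM with ILL. CHEK1 was at 51.0, 54.8 and 53.6 CPM in controls and at 14.9, 13.0 and 15.8 CPM with ILL, so both kinases were lower in every treated library. Increases were smaller, at 0.82 for NUMB, which binds MDM2, 0.67 for KAT5, a p53 acetyltransferase, 0.50 for SETD7, a lysine methyltransferase, and 0.26 for HIPK2, a p53 kinase. PPM1D stands in this list and in that of the targets, MDM4 here and among the relatives, and SESN2 among both targets and relatives.

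The genes most like MDM2 over the 6 libraries were named by the root mean square difference of log2 CPM after centring each gene on its mean. RNF13, a membrane-bound ubiquitin ligase, was nearest at 0.016, followed by CTNNBIP1, an inhibitor of β-catenin, at 0.017 and TRAPPC6B, a subunit of a vesicle tethering complex, at 0.026, among 13065 other tested genes. RNF13 went from 40.8 ± 2.25 to 59.7 ± 1.73 CPM (SD, n = 3), next to 54.6 ± 2.63 and 78.3 ± 1.96 CPM for MDM2. With 2 groups of 3 libraries, genes that rise by a like fold resemble each other by this measure.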

How the data were processed

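RNA of HCCC9810 cells was measured in 6 libraries, 3 per group, and the titles gave each library's group and number. Per the labels, RNA was extracted with TRIzol and libraries were made with standard Illumina mRNA kits. Raw counts and FPKM were deposited by the authors as tables of gene symbols by libraries. GRCh38 and DESeq2 are named in the submitters' processing notes, and the aligner, counting program, annotation and strand setting are not given in the sources used here.

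Genes were filtered with filterByExpr of edgeR 4.0.16 in R 4.3.3, which left 13066 of 19470 genes, TMM set the library scale, and the quasi-likelihood test of edgeR compared the groups, with p-values adjusted by Benjamini-Hochberg over all tested genes. DEGs, as the study's methods define them, passed an adjusted p of 0.05 and changed by more than 2-fold upward or to less than 0.5 of control. The biological coefficient of variation was 0.0717. No library was a copy of another, since the chi-square per degree of freedom between libraries of the same group was 5.15 to 11.8. The labels do not say that libraries came from separate cultures, so p-values measure only the spread between libraries. The fit was tested on simulated counts of 12968 genes, with 50 genes changed at each log2 value of 0.5, -0.5, 1 and -1. It called 84% and 86% of those at 0.5 and -0.5, and 100% at 1 and -1, with 14 false calls. Far fewer genes changed there than the 73.1% called in the data. How the scaling behaves under so broad a change was not tested.

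The members and lists were written by hand and chosen with earlier results of these data known. Named are all members, all relatives and partners, the 4 largest and 4 smallest log2 fold changes of each other list among genes that passed the test at 1 CPM or more without overlap, and the 3 genes nearest MDM2. Alternatives used DESeq2 1.42.0, limma 3.58.1, other scalings and filters, the replicate number as a block, and each library left out. Some genes of the lists are counted but not described by name.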

Additional observations from a re-analysis of the deposited data

How the results depend on the processing

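Of the 9 p53 target genes, 7 gave the same call and sign under each of the 14 alternatives, which called 7 or 8 of them, all higher with ILL. SESN1 passed with DESeq2's size factors (0.33, adjusted p = 0.047 in edgeR), with at least 10 counts in every library (0.33, adjusted p = 0.050 in edgeR) and without control replicate 1 (0.45). Its adjusted p ranged from 0.017 to 0.19 over the alternatives, and its log2 fold change from 0.23 to 0.45 without 1 library. TIGAR, which was not called under any alternative, turned its direction with library size only (-0.060), limma with 1 added to FPKM (-0.052) or 0.1 added (-0.062), and without control replicate 1 (-0.012), control replicate 2 (-0.0055) or ILL replicate 1 (-0.056), within a range from -0.056 to 0.066 without 1 library. BTG2 was above 2-fold in all but library size only (0.98), limma with 1 (0.89) or 0.1 (0.97) added, and the fits without control replicate 1 or 3 (0.99 in both), so that 2 or 3 members were DEGs. With 1 added to FPKM the TP53INP1 value from limma was 1.80, since the pseudocount shrinks changes of low genes. Among relatives that did not pass the test, MDM4 turned with library size only (-0.0054), limma with 1 (-0.0037) or 0.1 (-0.0054) added, and without control replicate 1 (-0.029) or ILL replicate 2 (-0.033), with a range from -0.033 to 0.15 without 1 library. ZMAT2 turned with DESeq2's size factors (0.0080), at least 10 counts (0.0097), DESeq2's test (0.0044), and without control replicate 3 (0.017) or ILL replicate 2 (0.045), with a range from -0.048 to 0.045. ZMAT5 turned with library size only (-0.035), limma with 1 (-0.025) or 0.1 (-0.026) added, and without control replicate 2 (-0.068) or ILL replicate 3 (-0.0090), with a range from -0.068 to 0.15. Called genes ranged from 29 to 31 of the other targets and from 23 to 26 of the regulators. The median of all tested genes was -0.070 with library size only and -0.10 with limma and 0.1 added. The causes of these differences were not tested. Deviations of same-numbered libraries from their group means correlated at 0.011, -0.022 and -0.018, so no strong shared effect of the replicate number was seen. Whether libraries were paired by culture or batch is not given in the labels, and these correlations cannot decide it. With the replicate number as a block 7 members, 30 other targets and 25 regulators were called. The RRM2B to RRM2 difference in log2 ratio was 3.40, and from 3.30 to 3.45 without 1 library. Counts in place of FPKM and the replicate block give the same difference by construction, so they are no check on it.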
